A study of Mus musculus with 6 samples.

Results

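The genes described here are 10 immediate early genes, Fos, Fosl2, Jun, Junb, Jund, Egr1, Ier2, Klf4, Klf6 and Myc. They were taken as a set list and found by their symbols among the 12316 rows of the authors' comparison. Each row is counted as a gene below, although some symbols stand in several rows and some rows name several genes. Each of the 10 stands in 1 row of that comparison and 0 are absent. They were measured in neural stem cells of CD-1 mouse embryos at E14.5, which are dividing precursors of neurons and glia. The cells were obtained commercially, grown as a monolayer on poly-L-ornithine and laminin with EGF and bFGF, both growth factors, transduced with a lentivirus and selected with puromycin at 0.5 µg/mL. Per the labels, 2 libraries of poly(A) RNA carried a scrambled short hairpin RNA (shRNA), 2 carried Sox4 shRNA 1 and 2 carried Sox4 shRNA 2, each pair from different passages. Sox4 is a transcription factor of the SoxC group, and the design asks which genes differ when it is targeted.

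The authors' comparison holds 1 level per gene in a first and in a second condition. Neither condition is named in its header, nor is a pooling of both Sox4 hairpins, so every direction below compares the second condition with the first. Levels are printed as FPKM (fragments relative to the length of the transcript and to all mapped fragments), the unit Cuffdiff writes in such columns, although the header itself states none. There is no value per library, so the depth is unknown and no standard deviation, interval or n can be given. Called genes are those with the authors' flag for significance, which reaches up to a q of 0.0494, q being the p-value adjusted over all of their tests. The labels do not say whether the passages were separate cultures, so these p-values may measure technical spread only. In the authors' deposited table the targeted gene, Sox4, stood at 126.8 and 83.9 FPKM with a q of 0.0543, which was not called. The exons of Sox4 share 2616 bases with Gm26735 on the other strand.

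Immediate early genes are transcribed within minutes of a growth factor, calcium or stress signal, without new protein synthesis, and their mRNAs are short-lived. Signals pass through the MAP kinases to factors already present in the nucleus, chiefly SRF with its ETS partners and CREB. Most immediate early genes encode transcription factors: Jun and Fos proteins pair through leucine zippers to form AP-1, Egr1 and the Kruppel-like factors bind GC-rich DNA through zinc fingers, and Myc binds E-boxes together with Max. In neural precursors they are used as markers of signalling by growth factors.

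Promoter sequences were at hand for 7 of the 10 genes in RefSeq (GRCm38.p6), as windows of 300 bases, from 250 before to 50 after an annotated start. Egr1, Ier2 and Myc were not matched. The 150 bases before the start are shown for 4 genes, Fos and Junb for their CRE cores and Jun and Klf6 for a shared AP-1 type site. They are written 5′ to 3′ on the strand of the gene. Capitals mark TGACG, the core of the cyclic AMP response element (CRE), TGACATCA, the AP-1 type site known from the Jun promoter, TATAAA, the TATA box, and CACGTG, the E-box that Myc and Max bind.
Fos, chr12:85473740-85473889, plus strand: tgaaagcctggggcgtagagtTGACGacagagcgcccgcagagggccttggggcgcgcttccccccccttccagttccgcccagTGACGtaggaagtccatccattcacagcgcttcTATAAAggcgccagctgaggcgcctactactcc
Junb, chr8:84978749-84978898, minus strand: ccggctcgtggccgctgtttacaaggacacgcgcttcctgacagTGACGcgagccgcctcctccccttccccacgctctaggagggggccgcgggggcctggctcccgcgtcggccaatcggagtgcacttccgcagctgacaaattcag
Jun, chr4:95052223-95052372, minus strand: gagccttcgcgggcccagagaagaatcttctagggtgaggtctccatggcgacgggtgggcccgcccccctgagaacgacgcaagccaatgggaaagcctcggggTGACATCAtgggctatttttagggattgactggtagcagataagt
Klf6, chr13:5861339-5861488, plus strand: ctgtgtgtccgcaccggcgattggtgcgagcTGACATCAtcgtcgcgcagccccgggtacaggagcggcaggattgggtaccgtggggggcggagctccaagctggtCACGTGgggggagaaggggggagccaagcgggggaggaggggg

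On both strands of the 300-base windows, TGACG was found in Fos, Junb and Klf4, 3 of the 7 genes, and in 20.8% of all 32851 windows. In Fos it begins 129 and 66 bases before the start, and the TATA box begins 33 bases before it. TATAAA was also found in Junb, where it begins at the annotated start or in the 50 bases after it, and in 13.6% of all windows. TGACATCA was found in Jun, 45 bases before the start, and in Klf6, 119 bases before it, against 3.62% of all windows. GCGGGGGCG, a site of Egr1, was found in Fosl2 and Klf4 and in 2.91% of all windows. CACGTG was found in Klf4 and Klf6 and in 7.15% of all windows. Full-length TGACGTCA, which contains TGACG and stands in 1.79% of all windows, was found in 0 of the 7 genes. So were TGACTCA (5.20% of windows), the CArG box that SRF binds (1.63%), and the Sox motifs AACAAAG (5.85%) and AACAATG (3.78%). These are matches of letters in 1 window per gene. Sites more than 250 bases before the start, and any sites of Egr1, Ier2 and Myc, could not be seen. A count of 0 therefore does not show that a gene lacks the site. For Jund the RefSeq start lies 1210 bases upstream of the start in GENCODE release M21, and for Fosl2 it lies 671 bases downstream, so other windows would apply to other starts of these genes. The GENCODE start of Junb lies 30 bases downstream of its RefSeq start.

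Gene structure varied among the 10 genes. Jun, Junb, Jund and Ier2, 4 of the 10, have 1 exon in their longest coding transcript in GENCODE M21, as do 2.79% of the 11614 protein-coding genes of the comparison. The genes span between 1522 nt (Ier2) and 22042 nt (Fosl2) with a median of 4610 nt, against a median of 25768 nt over those protein-coding genes. Jund (70698949 to 70700616, plus strand), Ier2 (84661331 to 84662852, minus strand) and Junb (84974484 to 84978718, minus strand) lie on chromosome 8, and Jun (95049034 to 95052222) and Klf4 (55527143 to 55532466), both on the minus strand, on chromosome 4. Fos lies on chromosome 12 (85473890 to 85477273), Klf6 on chromosome 13 (5861482 to 5870394), Myc on chromosome 15 (61985391 to 61990374), Fosl2 on chromosome 5 (32135801 to 32157842) and Egr1 on chromosome 18 (34859823 to 34864984), all on the plus strand. Exons of 3 of them overlap a gene on the other strand, and strand use in counting is not given in the sources used here, so their reads may be mixed. Jun shares 232 exon bases with Junos and Jund 877 with Gm11175. Junb shares 173 with Prdx2, of which 0 lie in the longest coding transcript of Junb.

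None of the 10 immediate early genes passed the authors' test for a difference between the conditions: 0 were called higher and 0 lower, where 4.99% of all 12316 genes were called, 3.17% higher and 1.83% lower. At an unadjusted Cuffdiff p under 0.05 the count was also 0 of 10, beside 17.5% of all genes. At an unadjusted p under 0.1 it was 3 of 10, Jun, Jund and Klf6, all lower in the second condition, beside 24.0% of all genes and 10.7% in that direction. This looser threshold was added after the values had been seen. The log2 fold was below 0 for 7 of the 10 and for 49.5% of all genes. The median log2 fold was -0.23 over the 10 genes and 0.0033 over all genes. A p-value above the threshold does not show that the levels were equal, and without values per library no interval of the difference can be given.

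The levels of the 10 genes covered a wide range, and their order was nearly the same in both conditions. Egr1 was highest, followed by Klf6, Myc and Jun, then Ier2, Jund, Fos and Junb, with Klf4 and Fosl2 lowest. From the first to the second condition, Klf4 and Fosl2 swapped places and the other 8 kept theirs. With 1 level per condition, which neighbours in this order differ beyond the spread between libraries cannot be said. The cells are bulk samples, in which fewer cells that express a gene and less RNA per cell cannot be told apart.

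**Figure D1:**
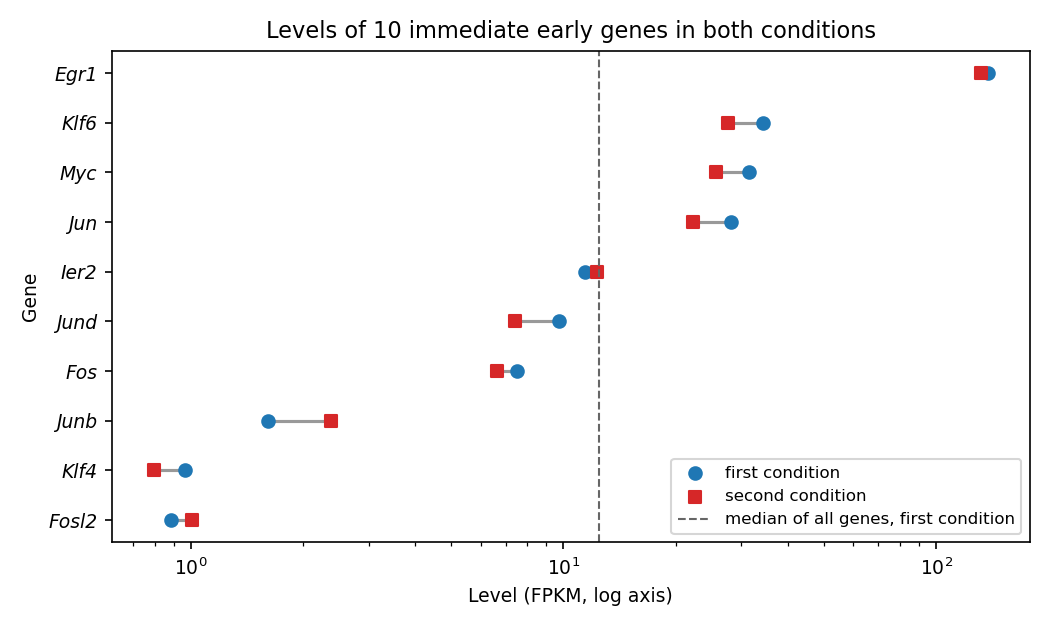
Levels of the 10 immediate early genes in FPKM (log axis), with circles for the first and squares for the second condition, 1 value each and no error because the comparison holds no value per library. Egr1 lies far to the right of the median of all genes (dashed line, 12.5 FPKM), and Junb, Klf4 and Fosl2 far to the left.

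Jun, the AP-1 subunit that can also pair with itself, had levels of 28.2 FPKM in the first condition and 22.3 in the second, as the authors' deposited table gives them. For Jun the authors' deposited table puts the log2 fold at -0.34, the Cuffdiff p at 0.0669 and the q at 0.349, the lowest p and q of the 10 genes. Jund, the Jun protein most typical of resting cells, stood at 9.74 and 7.43 FPKM in the authors' deposited table. At -0.39 (q 0.364), its log2 fold in the authors' deposited table was the lowest of the 10 genes. Junb, which can oppose Jun in AP-1 dimers, was the exception among the Jun genes, at 1.61 and 2.38 FPKM in the authors' deposited table. The largest absolute log2 fold of the 10 in the authors' deposited table was that of Junb, 0.56 (Cuffdiff p 0.112, q 0.447). Prdx2, the peroxidase gene that shares exon bases with Junb, stood at 287.3 and 192.2 FPKM in the authors' deposited table, and its part in the level of Junb was not tested.

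Of the Fos genes, whose products need a Jun partner to bind DNA, Fos stood at 7.50 and 6.65 FPKM in the authors' deposited table (log2 fold -0.18, q 0.802). Fosl2, a Fos-related subunit, stood at 0.886 and 1.01 FPKM in the authors' deposited table (log2 fold 0.19, q 0.837). The second condition was thus 11.4% below the first for Fos and 13.8% above it for Fosl2. Summed from the authors' deposited table, the 3 Jun genes came to 39.6 and 32.1 FPKM and the 2 Fos genes to 8.39 and 7.65. The Jun genes thus stood 4.71-fold above the Fos genes in the first and 4.19-fold in the second condition. Within the Jun sum, Jun held 71.3% and 69.4%, Jund 24.6% and 23.2%, and Junb 4.08% and 7.43%. These are sums of mRNA levels per length and carry no test.

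Egr1, the zinc finger factor induced through SRF, was the most abundant of the 10 genes, at 137.8 FPKM in the first condition and 132.0 in the second, per the authors' deposited table. The levels stood at percentiles 95.1 and 95.0 of all genes in the 2 conditions, and the log2 fold of -0.06 was the smallest in absolute size of the 10 (q 0.926) in the authors' deposited table. Ier2, a small nuclear protein of the immediate early response, stood at 11.4 and 12.3 FPKM in the authors' deposited table, near the median of all genes, with a log2 fold of 0.10 and a q of 0.894. These 2 genes and Fos had the 3 smallest absolute folds of the 10.

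Klf6, a Kruppel-like zinc finger factor, stood at 34.4 and 27.7 FPKM in the authors' deposited table. For Klf6 the authors' deposited table puts the log2 fold at -0.31, the Cuffdiff p at 0.0796 and the q at 0.383. Klf4, the Kruppel-like factor used in reprogramming to pluripotency, was low, at 0.966 and 0.796 FPKM in the authors' deposited table, with a log2 fold of -0.28 and a q of 0.795. Myc, which drives growth and ribosome production, stood at 31.5 and 25.7 FPKM in the authors' deposited table (log2 fold -0.29, Cuffdiff p 0.123, q 0.466). Jun, Klf6 and Myc, which were close in level, had folds between -0.34 and -0.29. Klf4, far lower in level, stood near them at -0.28. Jun and Klf6 have TGACATCA in the sequences above, and Myc had no window to search. No other gene with a window had the site, and these genes include Klf4 and Jund, the latter with the lowest fold. The part of this site in the folds was not tested.

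**Figure D2:**
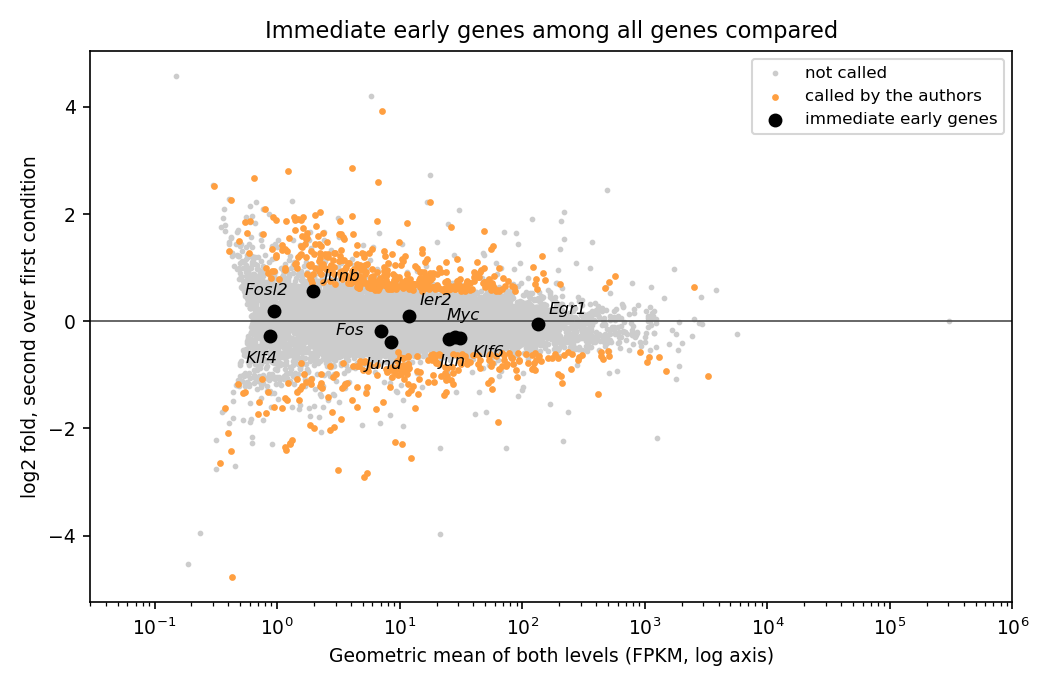
The log2 fold of the second over the first condition against the geometric mean of both levels (FPKM, log axis) for all 12316 genes, with genes called by the authors in orange and the 10 immediate early genes in black. Every immediate early gene lies among the genes that were not called, 7 of them below 0.

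The smallest absolute log2 fold called was larger under 5 FPKM and nearly the same, 0.55 to 0.56, in the ranges from 5 FPKM upward. The ranges hold unequal numbers of genes, on which such a minimum also depends. Among the 2690 genes whose higher level was from 20 to 50 FPKM, where Jun, Klf6 and Myc lie, 125 (4.65%) were called, from an absolute log2 fold of 0.56 upward, against at most 0.34 for these 3 genes. Among the 4504 genes from 5 to 20 FPKM, the range of Fos, Ier2 and Jund, 218 (4.84%) were called, also from 0.56 upward, against at most 0.39. Among the 2559 genes from 1 to 5 FPKM, which include Junb and Fosl2, 141 (5.51%) were called, from 0.69 upward. The absolute fold of Junb, 0.56, was below the smallest one called at its level. Under 1 FPKM, where Klf4 lies, 12 of 513 genes were called (2.34%), none with an absolute log2 fold below 1.18. At 50 FPKM and over the smallest fold called was 0.55, and the fold of Egr1 was below the median of 0.20 there.

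**Figure D3:**
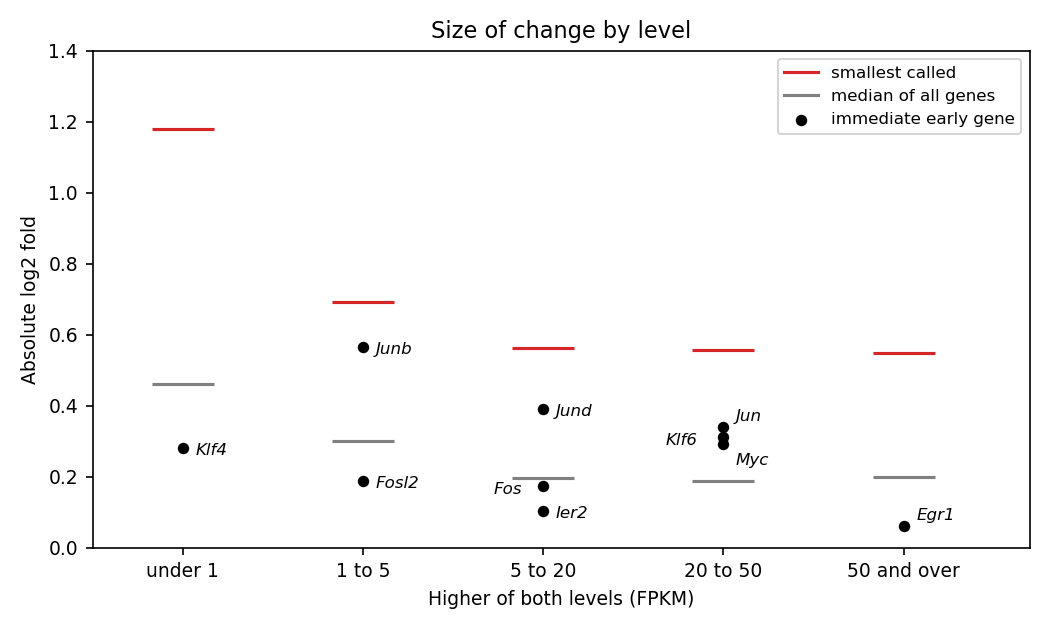
Absolute log2 fold by the higher of both levels, in 5 ranges of FPKM, with the smallest fold called (red), the median of all genes (grey) and each immediate early gene (black points). Each of the 10 genes lies below the red line of its range, and Junb, Jund, Jun, Klf6 and Myc lie above the grey one.

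Other immediate early and AP-1 related genes gave 1 call among the 51 that have a row, of 57 listed, or 1.96%, beside 4.99% of all genes. The called gene was Ctgf, a secreted matricellular protein, which rose from 0.437 to 1.36 FPKM in the authors' deposited table (log2 fold 1.64, q 0.0259). Its exons share 665 bases with Gm15270 on the other strand. Of these 51 genes 28 had a fold below 0, and their median log2 fold was -0.01. Fosb, Fosl1, Atf3, Batf, Batf3 and Npas4 are not among the rows analysed here.

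Some large folds at low levels were not called. Ier3, a regulator of cell survival, stood at 0.313 and 1.46 FPKM in the authors' deposited table (log2 fold 2.22, q 0.0957). The Egr genes pointed in several directions: Egr4 stood at 0.638 and 1.45 FPKM (q 0.103), Egr3 at 1.98 and 1.31 (q 0.298) and Egr2 at 3.29 and 2.30 (q 0.351) in the authors' deposited table. The growth arrest gene Gadd45g stood at 3.81 and 2.32 FPKM (q 0.324) in the authors' deposited table. Among AP-1 related leucine zipper genes 0 of 13 were called by Cuffdiff and 1 had an unadjusted p under 0.05. Creb3 stood at 26.4 and 20.3 FPKM (q 0.763) in the authors' deposited table.

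Calls in the pathway that leads to these genes are read beside the 4.99% of all genes called, a share at which lists this short hold few calls. Of 24 MAP kinases and their upstream kinases 0 were called by Cuffdiff and 1 had an unadjusted p under 0.05. That was Mapk12, a p38 kinase, at 3.31 and 6.12 FPKM (q 0.0531) in the authors' deposited table. The S6 kinase Rps6ka1 stood at 1.53 and 2.03 FPKM (q 0.564) in the authors' deposited table. Of 6 genes for SRF and its partners 0 were called by Cuffdiff, and Srf itself was the 1 with an unadjusted p under 0.05. It stood at 10.1 and 13.5 FPKM (q 0.267) in the authors' deposited table, and its coactivator Mkl2 at 25.9 and 36.5 with a q of 0.660.

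Phosphatases that switch MAP kinases off gave 1 rise among 9, where 3.17% of all genes rose. An unadjusted Cuffdiff p under 0.05 was found for 2 of the 9, beside 17.5% of all genes. Dusp4, a nuclear phosphatase of ERK, rose from 5.76 to 10.3 FPKM in the authors' deposited table (log2 fold 0.85, q 0.0187). Dusp6, its cytoplasmic counterpart, was far more abundant, at 275.7 and 341.4 FPKM (q 0.417), and Dusp8 stood at 3.33 and 2.37 (q 0.292) in the authors' deposited table. Over these 9 genes the median log2 fold was 0.21.

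Around Myc, 1 of 10 network genes fell, where 1.83% of all genes fell. An unadjusted Cuffdiff p under 0.05 was found for 3 of the 10, beside 17.5% of all genes. Mxi1, which competes with Myc for Max and represses Myc targets, fell from 11.4 to 6.15 FPKM in the authors' deposited table (log2 fold -0.89, q 0.00304). Its exons share 194 bases with Gm10197 on the other strand. The Myc relative Mycl stood at 18.0 and 12.7 FPKM (q 0.145) and the Max partner Mga at 3.08 and 4.36 (q 0.140) in the authors' deposited table. Mycn is not among the rows analysed here. Of 19 genes known as Myc targets 0 were called by Cuffdiff, 3 had an unadjusted p under 0.05 and 13 a fold above 0, with a median log2 fold of 0.07. Mybbp1a, a nucleolar protein, stood at 60.9 and 89.0 FPKM (q 0.0587) and Cad, an enzyme of pyrimidine synthesis, at 22.8 and 38.6 (q 0.482) in the authors' deposited table.

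Of 14 other Kruppel-like and related Sp genes 0 were called by Cuffdiff, beside 4.99% of all genes. An unadjusted Cuffdiff p under 0.05 was found for 3 of the 14, beside 17.5% of all genes. Klf15 stood at 10.9 and 7.30 FPKM (q 0.132) and Sp1 at 14.8 and 19.8 (q 0.177) in the authors' deposited table. Of 10 genes that act on Fos and Jun proteins, such as ubiquitin ligases and kinases, 0 were called and 0 had an unadjusted Cuffdiff p under 0.05. Cops5, which binds Jun, stood at 69.8 and 55.8 FPKM (q 0.383) and the ubiquitin ligase gene Rfwd2 at 18.8 and 16.1 (q 0.596) in the authors' deposited table.

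Genes described as targets of AP-1 or Egr1 held few calls, too few to read a direction from. Of 12 AP-1 targets with a row, 1 rose and 1 fell, where 3.17% of all genes rose and 1.83% fell. The other 10 were not called, and the median log2 fold of the 12 was 0.20. An unadjusted Cuffdiff p under 0.05 was found for 7 of the 12, beside 17.5% of all genes, and for 2 of 9 Egr1 targets. Hmox1, a heme-degrading enzyme, rose from 58.3 to 91.5 FPKM with a q of 0.0162, and the metal-binding Mt1 fell from 581.1 to 358.2 (q 0.0119) in the authors' deposited table. Ccl2, a chemokine, stood at 3.93 and 6.98 FPKM (q 0.223) and S100a6 at 1.12 and 0.497 (q 0.405) in the authors' deposited table. Of 9 Egr1 targets 1 rose, beside the same 3.17% of all genes. It was Fn1, which encodes fibronectin, from 3.32 to 6.90 FPKM (q 0.00304) in the authors' deposited table. The exons of Fn1 share 292 bases with Apol7d on the other strand. The death receptor gene Tnfrsf10b stood at 1.82 and 3.15 FPKM (q 0.108) in the authors' deposited table. Over the Egr1 targets, the median log2 fold was -0.12. These genes have many other regulators, and the lists were drawn up with earlier results of these data known.

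**Figure D4:**
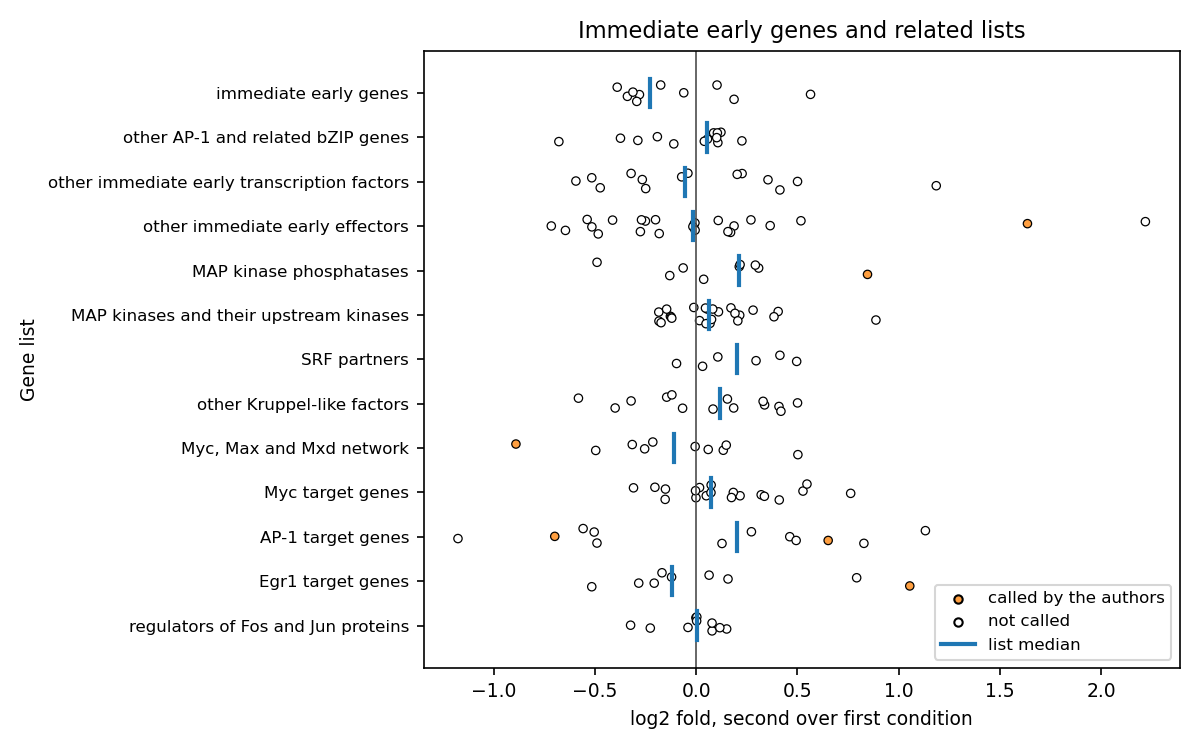
The log2 fold of the second over the first condition for each gene of the immediate early list and of related lists, with genes called by the authors filled in orange and the list median as a blue bar; vertical scatter within a list has no meaning. The immediate early genes hold no filled point. Single called genes stand out in the lists of effectors (Ctgf), phosphatases (Dusp4), the Myc network (Mxi1) and the Egr1 targets (Fn1). Among the AP-1 targets, Hmox1 and Mt1 are filled.

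Markers of the labelled cell type were mostly found. Of 10 neural stem cell markers 9 have a row, 2 rose, 2 fell and Prom1 has none, and 5 of the 9 had a fold above 0, at a median log2 fold of 0.03. Nes and Sox1 rose and Fabp7 and Hes5 fell, where 3.17% of all genes rose and 1.83% fell. The summed level was 6140 and 3939 FPKM, of which Fabp7 alone held 4620 and 2286 in the authors' deposited table, and the other 8 summed to 1520 and 1653. None of the 7 microglia and 6 endothelial markers, and 1 of 7 fibroblast markers, Twist1, are among the rows analysed here. All 6 astrocyte markers have a row, and their summed level was 220.2 and 131.2 FPKM. Of these 3 fell, Gfap, Aqp4 and Slc1a2, and Aldh1l1 rose, beside the same shares of all genes. An unadjusted Cuffdiff p under 0.05 was found for 6 of 6, beside 17.5% of all genes. On the other strand, exons of Aldh1l1 share 499 bases with Gm15756, of Slc1a2 189 with Gm13872 and of Hes5 433 with Gm20421. Oligodendrocyte lineage markers summed to 1394 and 1208 FPKM, and neuron markers to 136.7 and 142.2, with 0 of 5 called by Cuffdiff and 1 with an unadjusted p under 0.05. The 10 immediate early genes summed to 264.0 and 238.2 FPKM, and the part of the glial and stem cell markers that rose or fell in these levels was not tested. Of 8 stress genes with a row 1 fell, Ddit4, an inhibitor of mTOR signalling, from 46.8 to 27.0 FPKM (q 0.00304) in the authors' deposited table. The stress factor gene Ddit3 stood at 11.9 and 8.19 FPKM (q 0.836) and the heat shock gene Dnajb1 at 30.5 and 24.2 (q 0.387) in the authors' deposited table.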

How the data were processed

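The 6 libraries of poly(A) RNA were prepared for SOLiD sequencing, per the labels' protocols. Per the submitters' processing notes, the build was mm10 and the tools were Cuffdiff, Cufflinks 2.2.1 and TopHat2 2.0.9. For annotation and strand use, the sources used here give nothing. Per the file headers, the authors deposited a level per condition, taken as FPKM from Cuffdiff, a log2 fold, a test statistic (a score), p-values and q-values. No value of the table was refitted. All counts, medians and ranks were computed from it with Python 3.11.15, numpy 2.4.6, pandas 2.3.3, statsmodels 0.14.6 and matplotlib 3.10.9. No level is 0, and no filter on low levels was added here. Genes at low levels may have been left out before, so a gene without a row is not shown to lack RNA. The table has 82 rows that name several genes, 0 of them a row of the 10 genes.

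The genes and lists were chosen with earlier results of these data known, so no list was tested. The text names the 10 genes, Sox4, every called member of each list and the 2 uncalled members at 1 FPKM or more with the largest absolute fold, and for marker lists of cell types the called members, counts and sums. Some genes that this rule takes are not reported here. With 1 comparison, no genes of like pattern could be sought. Positions, lengths and overlaps come from GENCODE M21 (GRCm38, the assembly of mm10), matched for 98.7% of rows. Motifs were searched as exact letters in RefSeq promoter windows. Benjamini-Hochberg adjustment and the length trend (span 0.3) were tested on simulated data.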

Additional observations from a re-analysis of the deposited data

How the results depend on the processing

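Under a q of at most 0.01, an absolute log2 fold of at least 1, a level of at least 5, q recomputed over genes at 1 FPKM or more, centring, or single-gene rows, 0 of the 10 immediate early genes were called in either direction. Stricter thresholds cannot add calls, so among these only the recomputed q could have changed this count. Over all genes, the 390 higher and 225 lower calls fell to 203 and 110 under the stricter q, and to 134 and 89 under the fold minimum. The median log2 fold of the 10 genes, -0.23, was -0.14 with a pseudocount of 1 and -0.19 with the length trend taken off. With the length trend off, which unlike a pseudocount or the small centring could turn a sign, 0 of the 10 genes changed sign. Fosl2 went from 0.19 to 0.03, Egr1 from -0.06 to -0.12 and Ier2 from 0.10 to 0.21. With genes under a level of 1 left out, 0 list counts of calls moved, and 1 list median moved by more than 0.1: that of the neuron markers went from 0.44 to 0.25 with fewer genes. Smaller shifts were those of the other immediate early transcription factors, from -0.06 to -0.15, of the AP-1 targets, from 0.20 to 0.13, of the 10 immediate early genes, from -0.23 to -0.18, and of the other Kruppel-like factors, from 0.12 to 0.08. No paired analysis was possible because each condition has 1 level. Leaving out single replicates was not run for that reason, and the depth is unknown.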
